A study of Mus musculus with 6 samples.

Results

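The EBF family genes *Ebf1*, *Ebf2* and *Ebf3* were followed in Digits in a Dish (DID) cultures. These are 3 of the 32286 genes in the count matrices, found there by their gene symbols, and the fourth family gene, *Ebf4*, is given beside them. The cultures were grown at high density from the distal forelimb mesenchyme of pooled E11.5 CD-1 mouse embryos, in medium with serum. The labels name no altered genotype and no treatment, and the groups differ in their day of culture. Single-cell RNA libraries were made with droplet 3′ chemistry at Day 2, Day 7 and Day 10, with 2 independent cultures (replicates A and B) per day, 6 libraries in all.

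EBF proteins are helix-loop-helix transcription factors that bind DNA as dimers. EBF1 is best known for committing lymphoid progenitors to the B cell lineage, and together with EBF2 and EBF3 it also acts in mesenchymal cells, among them adipocyte progenitors and bone marrow stroma. The DNA-binding domain is much alike between the members, so that they are thought to bind the same palindromic motif.

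*Ebf1* (ENSMUSG00000057098) lies on the forward strand of GRCm38 at chr11:44617317-45008091, *Ebf2* (ENSMUSG00000022053) on the forward strand at chr14:67233292-67430918 and *Ebf3* (ENSMUSG00000010476) on the reverse strand at chr7:137193673-137314445. *Ebf4* (ENSMUSG00000053552) is at chr2:130295169-130370481 on the forward strand. In the GENCODE annotation, 1 gene overlapped *Ebf1*, 5 overlapped *Ebf2* and 2 overlapped *Ebf3*, all on the opposite strand, and no stretch of 50 bases was shared between the annotated transcripts of any pair of the 4 genes.

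Because the levels of the 3 genes moved together across the days, their upstream sequence was searched for the core of the EBF palindrome, CCCNNGGG, which reads the same on both strands. RefSeq promoter entries were at hand for 3 of the 4 genes (GRCm38.p6), with none for *Ebf2*. In the 250 bases before a start site the core was found 1 time for *Ebf3*, at position -21 from the start, and 0 times before either start of *Ebf1* or before that of *Ebf4*. It was present in 11.8% of all 32851 windows of that length. The window of *Ebf3* (chr7:137314446-137314695, reverse strand) is given 5′ to 3′ with the core match in capitals, followed by the last 30 bases before the first *Ebf1* start for contrast, a window that lies inside the GENCODE gene. The *Ebf3* window has 80.0% G and C.
Ebf3: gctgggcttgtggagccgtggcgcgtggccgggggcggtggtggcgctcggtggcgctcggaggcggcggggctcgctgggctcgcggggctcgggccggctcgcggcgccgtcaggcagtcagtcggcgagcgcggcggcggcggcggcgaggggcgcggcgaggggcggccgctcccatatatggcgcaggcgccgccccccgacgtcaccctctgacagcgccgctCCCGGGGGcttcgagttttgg
Ebf1: aaaaaaaaaaaaaaaatctgtggttggcgt

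After the quality limits of the study were applied per library, between 9448 and 16486 cells were kept with 178022112 to 260245417 UMIs (unique molecular identifiers, each standing for 1 captured RNA molecule) per library. The median UMI count per cell was 3871 in Day 2 replicate B and 8062 to 24197 in the other 5 libraries, and 41.4% of the cells of Day 2 replicate B had fewer than 3000 UMIs. Libraries shared 36 to 120 cell barcodes pairwise, at most 0.715% of the smaller one. No doublet caller was run and no cells were removed as doublets.

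All 3 members fell from Day 2 to Day 7 and again from Day 7 to Day 10. Levels are UMI sums over the cells of a library as CPM, in which every library is brought to the same total, scaled with the TMM factors of edgeR. *Ebf1* was at 282 and 263 CPM in Day 2 replicates A and B. The Day 7 replicates had 99.3 and 109, those of Day 10 had 74.1 and 83.1. *Ebf3* was at 47.4 and 47.3 on Day 2, 12.3 and 12.4 on Day 7, then 10.2 and 7.48. *Ebf2* was the scarcest of the members, with 13.1 and 12.05 CPM at Day 2. It had 2.25 and 2.60 by Day 7, then 1.65 and 0.860. For each member, no library of a later day reached the lowest library of the day before. *Ebf2* rested on few molecules late in culture, 404 and 191 UMIs at Day 10 against 3019 and 2451 at Day 2. Since these are sums over whole cultures, fewer cells of a type and less RNA per cell cannot be told apart in them.

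**Figure D1:**
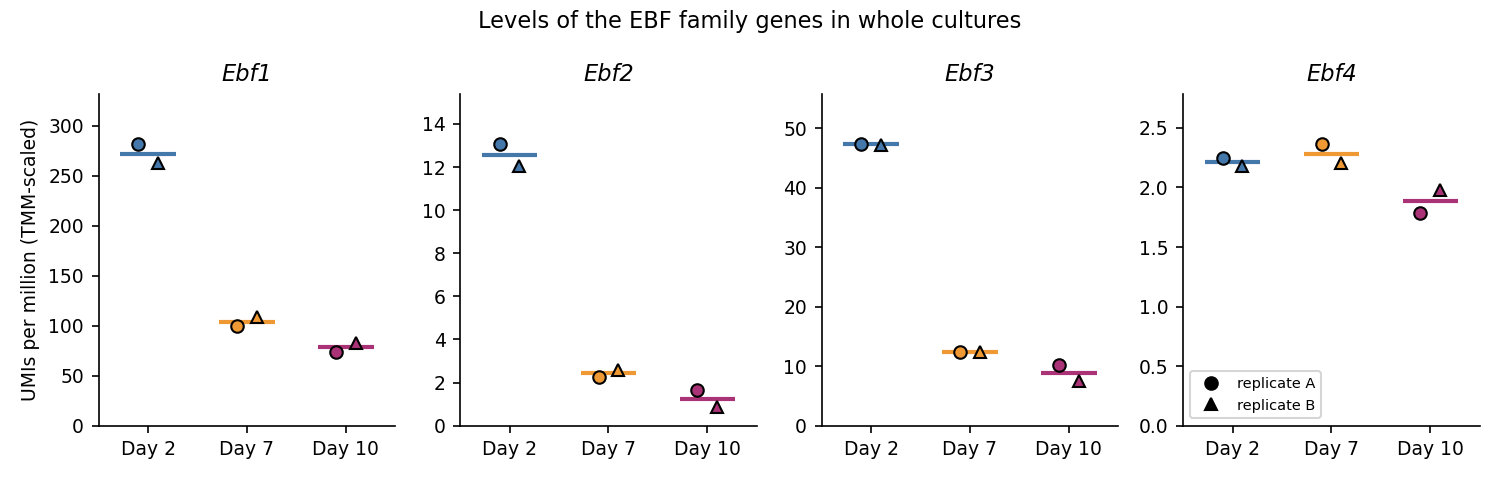
Level of each EBF family gene in whole cultures (vertical axes, CPM, TMM-scaled, starting at 0) against day of culture, with 1 point per library, circles for replicate A, triangles for replicate B and a bar at the mean of 2. *Ebf1*, *Ebf2* and *Ebf3* step down at each day, while the Day 2 and Day 7 points of *Ebf4* overlap.

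From Day 2 to Day 7, *Ebf2* fell by 2.37 on the log2 scale (SE 0.22, adjusted p = 1.32e-05, n = 2 against 2, quasi-likelihood test of edgeR, p adjusted by Benjamini-Hochberg). *Ebf3* fell by 1.93 (SE 0.12, edgeR adjusted p = 1.14e-06) and *Ebf1* fell by 1.39 (SE 0.07, edgeR adjusted p = 5.16e-07). Thus 3 of 3 members were called lower, where 34.6% of the 18987 genes tested were called lower and 35.7% higher. The decreases from Day 7 to Day 10 were smaller. *Ebf2* fell by 0.94 (SE 0.24, edgeR adjusted p = 0.00992), *Ebf3* fell by 0.48 (SE 0.12, edgeR adjusted p = 0.00962) and *Ebf1* fell by 0.40 (SE 0.07, edgeR adjusted p = 0.00226). Again 3 of 3 were called lower, against 25.9% of all genes called lower and 26.3% called higher. *Ebf4* was at 2.25 and 2.18 CPM on Day 2, at 2.36 and 2.21 on Day 7 and at 1.79 and 1.98 on Day 10. It changed by 0.05 (SE 0.10, edgeR adjusted p = 0.710) over the first interval and fell by 0.28 (SE 0.10, edgeR adjusted p = 0.0491) over the second. Both comparisons use the Day 7 libraries.

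Marker genes of other cell types moved over the same days, and their part in the EBF decreases was not tested. Their counts are read against all genes, of which 34.6% were lower and 35.7% higher at Day 7 and 26.3% higher from Day 7 to Day 10, and the counts of 3 of 6 immune and 3 of 7 neuron and glia markers at Day 7 lie near those shares. The summed level of the 8 muscle markers fell from 248 to 314 CPM at Day 2 to between 33.4 and 53.9 at Day 7, with 8 of 8 called lower. The 6 dividing cell genes went from 849 to 903 to between 410.3 and 417 at Day 7, with 6 of 6 lower. The 4 globin genes of the erythroid list summed to 52.6 and 125 at Day 2 and to at most 0.0102 at Day 7, with 4 of 4 lower. Immune markers went the other way, from 9.97 and 20.5 at Day 2 to between 103 and 129 at Day 10, with 3 of 6 higher at Day 7 and 6 of 6 higher from Day 7 to Day 10. Of the endothelial markers, 4 of 5 tested were lower at Day 7 (the sum went from 20.7 to 22.2 down to between 8.21 and 8.81), and 3 of 7 neuron and glia markers were lower (17.5 to 18.6, then 9.92 to 11.3). *Flt1* made up most of the endothelial sum, at means of 20.1 and 7.62 CPM on Day 2 and Day 7, while *Pecam1* was at 0.424 and 0.557. Cells with at least 3 of the 6 immune markers numbered 19 to 198 per library.

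Shares of cells with a UMI were also compared at equal depth. Without thinning, *Ebf1* UMIs were found in 81.1% and 58.3% of the cells of Day 2, in 48.9% and 52.9% of Day 7 and in 58.0% and 60.1% of Day 10. With cells thinned to 1000 UMIs, for which 120 shallower cells of Day 2 replicate A and 205 and 121 of Day 10 replicates A and B were left out, the shares were 25.8% and 22.3%, 9.27% and 10.8%, and 8.87% and 10.3%, so that Day 7 and Day 10 overlapped. At 3000 UMIs, with shallower cells left out, the shares of Day 7 were 25.1% and 27.2% and those of Day 10 were 21.2% and 23.2%, with no overlap. For *Ebf3* the thinned shares were 5.08% and 5.05% at Day 2. They were 1.33% and 1.47% on Day 7 and 1.06% and 1.03% on Day 10. For *Ebf2* they were 1.55% and 1.31%, then 0.222% and 0.251%, then 0.157% and 0.102%. Cells with an *Ebf1* UMI held 8.50 and 5.56 such UMIs on average at Day 2 and 2.94 to 3.09 at the later days. The most in 1 cell was 131, in Day 2 replicate A.

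RNA that floats free in a droplet run also gives UMIs in cells that do not make it. The 469 cells with at least 3 of 6 immune markers (median 20920 UMIs) were taken as cells that should lack the members. In them, an *Ebf1* UMI was found in 24.9% (exact binomial 95% interval 21.1 to 29.1%, counting error only), against 58.8% of all 72099 cells (median 12634 UMIs). *Ebf3* was found in 6.40% of the immune marker cells and 19.8% of all cells, and *Ebf2* in 0.640% and 6.02%. On the level scale, *Ebf1* was at 31.8 CPM in the immune marker cells and at 151 in all cells. The pooled values mix days, since 142 and 198 of the immune marker cells came from the Day 10 libraries. Within libraries, the *Ebf1* share was lower in immune marker cells in 6 of 6, with immune shares of 42.1% (20.3 to 66.5%) in Day 2 replicate B and 39.4% (22.9 to 57.9%) in Day 7 replicate A. For *Ebf3* and *Ebf2* it was lower in 5 of 6. In Day 7 replicate A, 15.2% of 33 immune marker cells had an *Ebf3* UMI and 6.06% an *Ebf2* UMI, against 12.3% and 2.49% of all cells. These are 5 and 2 cells, with intervals of 5.11 to 31.9% and 0.743 to 20.2%, too few to place either gene at background or above it. Since no doublets were removed, UMIs of free RNA and of doublets cannot be told apart in immune marker cells. At Day 10, *Ebf2* was found in 0 of 142 and 0 of 198 immune marker cells, which allows up to 2.56% and 1.85% by the exact interval, and in 2.86% and 1.59% of all cells. At Day 2 it was found in 1 of 24 (4.17%, 0.105 to 21.1%) and 0 of 19 (up to 17.6%), against 17.9% and 9.02% of all cells, and in Day 7 replicate B in 0 of 53 (up to 6.72%), against 3.04%. The *Ebf2* share of all cells thus lay within the immune interval in 5 of 6 libraries, all but Day 10 replicate A, and those of *Ebf1* and *Ebf3* in 2 of 6, Day 2 replicate B and Day 7 replicate A. These shares compare cells of unequal depth, with medians of 12088 UMIs in immune marker cells against 3871 in all cells in Day 2 replicate B and 28431 against 8062 in Day 7 replicate A. Levels, here CPM of the library total without TMM, are scaled to the UMIs of the cells compared. *Ebf1* was lower in immune marker cells in 6 of 6 libraries, at 98.8 and 90.4 against 317 and 300.03 CPM at Day 2, 33.0 and 34.9 against 93.0 and 101 at Day 7 and 19.1 and 28.5 against 69.7 and 79.2 at Day 10. *Ebf3* was lower in 5 of 6, with 12.4 against 11.5 in Day 7 replicate A. *Ebf2* was at 1.86 and 0 CPM in immune marker cells against 14.7 and 13.8 at Day 2 and at 2.06 against 2.11 in Day 7 replicate A, values that rest on at most 2 *Ebf2* UMIs in the immune marker cells of a library.

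With cells thinned to 3000 UMIs, most cells with a member UMI had *Ebf1* alone. Here each cell of at least 3000 UMIs was thinned to that number and shallower cells were left out, which kept 9653 of 16486 cells in Day 2 replicate B and 9328 of 13485 in Day 7 replicate A. No member was seen in 45.1% and 44.4% of these cells of Day 2, in 71.8% and 69.6% of Day 7 and in 76.2% and 74.9% of Day 10. *Ebf1* alone was seen in 37.5% and 39.7% on Day 2, in 23.6% and 25.3% on Day 7 and in 20.0% and 22.3% on Day 10. All 3 members together were seen in 84 and 62 cells at Day 2 and in 0 to 6 cells of each later library. At this depth the scarcer members are often missed. Without thinning, *Ebf3* was found in 46.5% and 48.6% and *Ebf2* in 20.1% and 20.8% of the Day 2 cells of at least 10000 UMIs. *Ebf1* and *Ebf3* were found in the same cell more often than the product of their shares in 6 of 6 libraries, by a ratio of 1.13 to 1.54. At Day 2, an *Ebf1* UMI was found in 60.9% and 54.7% of the cells with an *Ebf3* UMI and in 46.0% and 47.5% of those without. *Ebf2* and *Ebf3* shared cells 2.02 and 1.99 times as often as the product of their shares at Day 2, in 112 and 94 cells. These ratios are descriptions, since cells of 1 library are not replicates.

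**Figure D2:**
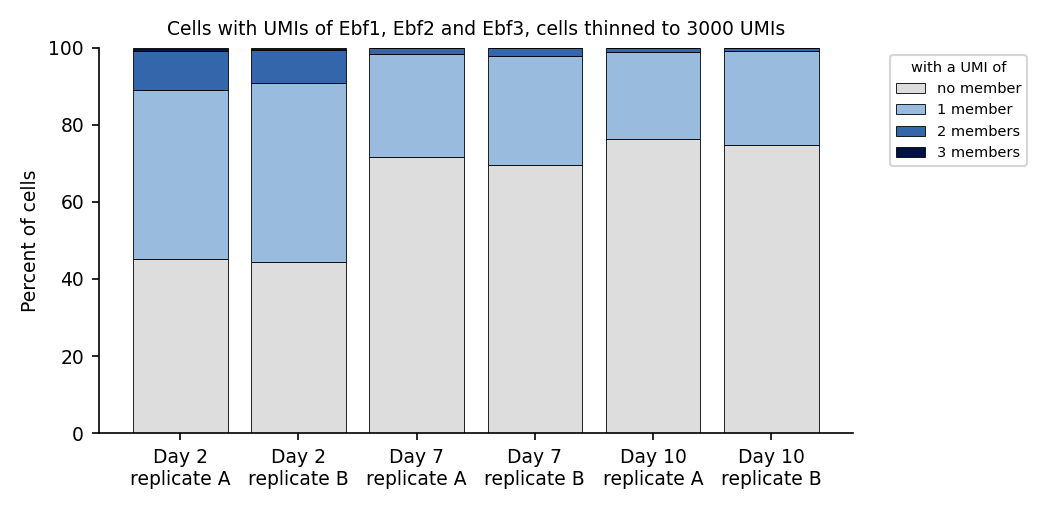
Percent of the cells of at least 3000 UMIs in each library (vertical axis) that had a UMI of 0, 1, 2 or 3 of the genes *Ebf1*, *Ebf2* and *Ebf3* after thinning to 3000 UMIs per cell, with shallower cells left out. The share of cells with no member rises from 45.1% and 44.4% at Day 2 to 76.2% and 74.9% at Day 10, and cells with 3 members are 0.954% of these cells at most.

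Cells were then split by UMIs of *Gdf5*, a growth factor gene of the joint interzone, *Matn1*, a cartilage matrix gene, and *Tnmd*, a gene of the tendon cell membrane. The other genes of each list were used as a check of the splits. In cells with a *Gdf5* UMI, 7 of the 10 other joint interzone genes tested were higher and 0 lower, and 10 of 10 cartilage genes were higher as well, averaged over the days. In cells with a *Matn1* UMI, 9 of the 9 other cartilage genes were higher. In cells with a *Tnmd* UMI, 6 of the 7 other tendon genes were higher, 1 was lower and 10 of 10 cartilage genes were lower. Of all genes tested, 14.1% were higher and 19.1% lower with *Gdf5*, 21.9% and 27.1% with *Matn1*, and 23.0% and 23.2% with *Tnmd*. A *Matn1* UMI was common in all cells late in culture. It was found in 73.4% and 68.3% of the cells at Day 7 and 62.3% and 60.1% at Day 10. In the immune marker cells the shares were 75.8% and 60.4% (Day 7) and 54.2% and 46.0% (Day 10), so that 1 such UMI can be background there. With cells thinned to 1000 UMIs, immune marker cells had 6.06% and 18.9% against 44.8% and 39.25% of the others at Day 7. At Day 10 these shares were 6.43% and 7.69% against 24.2% and 23.7%. The cells with a marker UMI were also deeper than those without in most libraries, with medians of 11635.5 and 14402 UMIs against 3552 and 5143 for *Matn1* at Day 7. *Tnmd* UMIs were found in 12.1% and 9.43% of the immune marker cells of Day 7 against 6.33% and 6.76% of the other cells, and in 8.33% against 7.81% in Day 2 replicate A. These rest on 4 of 33, 5 of 53 and 2 of 24 immune marker cells, with medians of 28431 and 23447 UMIs against 8013.5 and 9252 at Day 7. As CPM without TMM, *Tnmd* was lower in immune marker cells of Day 7 replicate A (11.3 against 15.3) and Day 2 replicate A (7.45 against 13.0). It was higher in Day 7 replicate B (20.9 against 17.7). Whether 1 *Tnmd* UMI is above background in those 3 libraries is thus not settled. At Day 10 the shares were 4.23% and 4.55% against 14.2% and 12.1%. For *Gdf5* they were lower in the immune marker cells of 6 of 6 libraries, though close in Day 2 replicate B (10.5% of 19 cells against 11.5%), and the exact interval left out the share of the other cells only in Day 10 replicate A (0 of 142, up to 2.56%, against 3.64%). With at least 2 marker UMIs against 0, the average differences of *Ebf1*, *Ebf2* and *Ebf3* given next were 0.63, 0.41 and 0.31 with *Gdf5* and 0.24, 0.58 and 1.03 with *Tnmd*, of which *Ebf2* with *Gdf5* did not pass (edgeR adjusted p = 0.306). An additional split at 10 *Matn1* UMIs was therefore made, chosen after these shares had been seen.

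*Ebf1* was called higher in cells with a *Gdf5* UMI, and its difference changed sign between days. At Day 2 it was at 451 and 428 CPM in cells with a *Gdf5* UMI and at 225 and 221 in cells without one. At Day 7 the values were 136 and 166 with and 94.8 and 102 without. At Day 10 they were 62.3 and 72.6 with and 74.5 and 83.4 without. The cells with *Gdf5* were thus higher in each library of Day 2 and Day 7 and lower in both of Day 10. The marker lists moved over the same days, and their part in this was not tested. The 10 other joint interzone genes summed to 1120 to 1209 CPM with *Gdf5* against 604 to 641 without at Day 2 and to 351 to 367 against 379 to 398 at Day 10, where 1 of 10 was higher and 4 lower. The 10 cartilage genes summed to 1943 to 2143 against 1758 to 1919 at Day 2 and to 23908 to 28271 against 9260 to 10082 at Day 10, where 10 of 10 were higher. Most *Gdf5* cells of Day 10 also had UMIs of another marker: 52 of 373 and 50 of 314 had *Gdf5* alone. In those, *Ebf1* was at 74.8 and 68.0 CPM against 68.1 and 76.8 in cells with none of the 3 markers, higher in replicate A and lower in replicate B. Averaged over the days, *Ebf1* was higher by 0.45 on the log2 scale (SE 0.03, edgeR adjusted p = 1.90e-06). *Ebf2* differed by 0.26 (SE 0.14, edgeR adjusted p = 0.186) and *Ebf3* by 0.14 (SE 0.07, edgeR adjusted p = 0.143). So 1 of 3 members was called higher, where 14.1% of 18099 genes were higher and 19.1% lower. The averages join days of opposite sign for all 3 members. At Day 2 all 3 were called higher, *Ebf1* by 0.98 (SE 0.04), *Ebf3* by 0.89 (SE 0.07) and *Ebf2* by 0.49 (SE 0.10; edgeR adjusted p = 1.05e-06, 2.01e-05 and 0.00421), where 11.2% of genes were higher and 16.1% lower. At Day 7, 2 of 3 were called higher, *Ebf1* by 0.61 (SE 0.04, edgeR adjusted p = 1.69e-05) and *Ebf2* by 0.79 (SE 0.16, edgeR adjusted p = 0.00721), with 0.26 for *Ebf3* (SE 0.09, edgeR adjusted p = 0.0760), where 8.46% were higher and 9.51% lower. At Day 10, 2 of 3 were called lower, *Ebf1* at -0.23 (SE 0.05, edgeR adjusted p = 0.00955) and *Ebf3* at -0.75 (SE 0.15, edgeR adjusted p = 0.00454), with -0.50 for *Ebf2* (SE 0.34, edgeR adjusted p = 0.331), where 12.3% were higher and 13.9% lower. Like *Ebf1*, *Ebf2* lay higher with *Gdf5* in each library of Day 2 and Day 7, at 16.9 and 15.4 against 11.7 and 11.2 and at 2.94 and 4.91 against 2.17 and 2.33 CPM, and lower in both of Day 10. *Ebf3* was at higher levels with *Gdf5* at Day 2, 73.0 and 73.9 against 38.8 and 40.5 CPM, and lower at Day 10, 4.95 and 5.90 against 10.5 and 7.53. Without the cells that had UMIs of several markers, the average for *Ebf3* was 0.59 and passed the test (SE 0.15, edgeR adjusted p = 0.00944).

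All 3 members were lower in cells with a *Matn1* UMI, with the lowest average ratio for *Ebf3*. At Day 2 *Ebf3* was at 19.6 and 18.1 CPM with *Matn1* and at 49.5 and 50.1 without. At Day 7 the values were 11.5 and 11.4 against 17.8 and 17.7, and at Day 10 they were 9.43 and 6.73 against 12.1 and 9.03. In 6 of 6 libraries the cells with *Matn1* had less. Averaged over the days, *Ebf3* fell by 0.81 on the log2 scale (SE 0.03, edgeR adjusted p = 6.89e-10), *Ebf2* fell by 0.47 (SE 0.07, edgeR adjusted p = 9.74e-05) and *Ebf1* fell by 0.23 (SE 0.02, edgeR adjusted p = 1.67e-07). Hence 3 of 3 were called lower, against 27.1% of 18442 genes lower and 21.9% higher. With at least 10 *Matn1* UMIs against 0, the averages were -1.48 for *Ebf3*, -1.33 for *Ebf2* and -0.32 for *Ebf1*, all past the test (edgeR adjusted p = 1.26e-10, 1.34e-05 and 3.52e-05). At Day 2 that split held only 33 and 39 such cells, with 9 and 7 *Ebf2* UMIs.

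With *Tnmd*, *Ebf3* was higher in every library. It was at 63.1 and 64.6 CPM with *Tnmd* and 45.8 and 45.4 without at Day 2, at 24.1 and 22.9 against 10.8 and 11.02 at Day 7, and at 16.3 and 12.9 against 8.78 and 6.30 at Day 10. *Ebf1* was lower with *Tnmd* at Day 2, 196 and 195 against 296 and 276. It was higher at Day 7, 129 and 123 against 95.3 and 106, and at Day 10, 108 and 122 against 65.5 and 74.3. *Ebf2* was at 13.2 and 14.6 against 13.2 and 11.8 at Day 2, 3.46 and 3.05 against 2.10 and 2.53 at Day 7 and 2.16 and 1.26 against 1.51 and 0.769 at Day 10. Averaged over the days, *Ebf3* was higher by 0.85 (SE 0.03, edgeR adjusted p = 1.02e-11), *Ebf2* by 0.41 (SE 0.08, edgeR adjusted p = 6.98e-04) and *Ebf1* by 0.17 (SE 0.02, edgeR adjusted p = 3.68e-05). All 3 were called higher, against 23.0% of 18139 genes higher and 23.2% lower. The average for *Ebf1* joins days of opposite sign. The call for *Ebf2* was lost without the cells of several markers, at 0.26 (SE 0.13, edgeR adjusted p = 0.127). *Ebf4* was lower with *Tnmd*, where it fell by 0.35 (SE 0.10, edgeR adjusted p = 0.0112), and lower with *Matn1*, where it fell by 0.25 (SE 0.08, edgeR adjusted p = 0.0230). The average with *Matn1* joins days of opposite sign, since the log2 ratios of *Ebf4* were 0.19 and 0.25 at Day 2 and -0.69 to -0.36 in the later libraries, and with *Tnmd* *Ebf4* was lower in 5 of 6 libraries (-1.06 to 0.13).

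**Figure D3:**
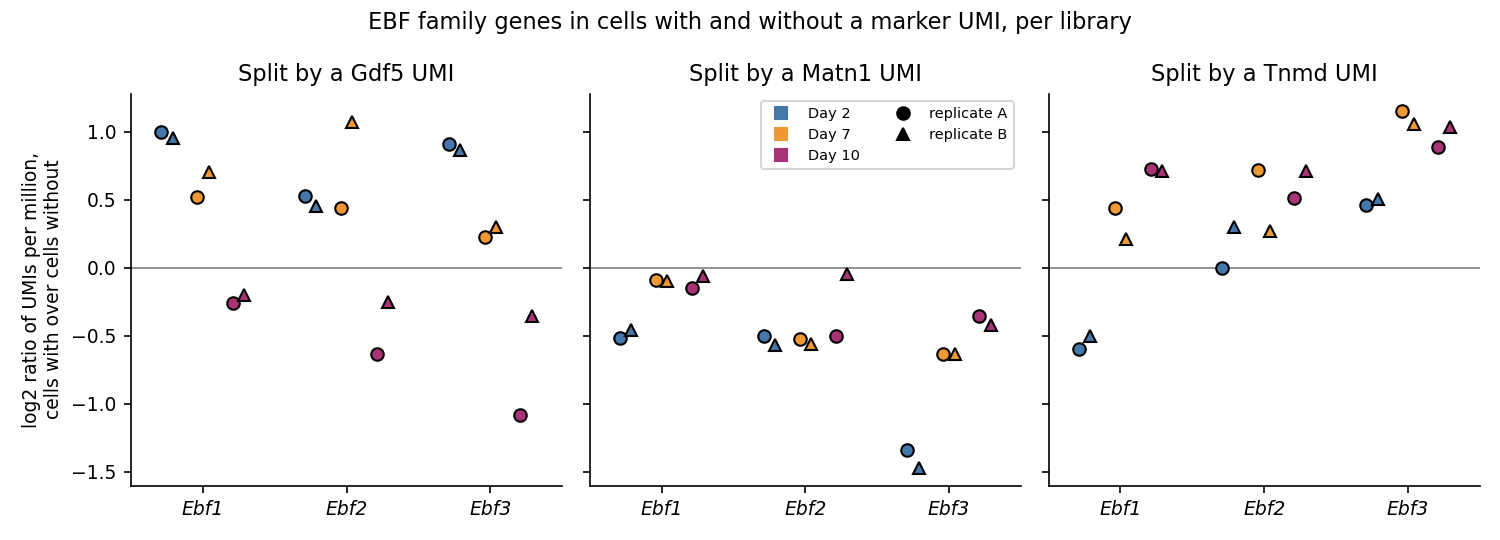
Log2 ratio of each member's level in cells with a marker UMI to that in cells without (vertical axis), for splits by *Gdf5*, *Matn1* and *Tnmd*, with 1 point per library, colours for days and shapes for replicates. *Ebf3* lies below 0 in all 6 libraries of the *Matn1* split and above 0 in all 6 of the *Tnmd* split, while *Ebf1* changes sign between days in the *Gdf5* and *Tnmd* splits.

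These differences were themselves compared between days within the same fits. For *Ebf1*, the difference with *Tnmd* rose by 0.87 from Day 2 to Day 7 (SE 0.06, edgeR adjusted p = 1.29e-07) and by 0.40 from Day 7 to Day 10 (SE 0.06, edgeR adjusted p = 7.10e-04). For *Ebf3* it rose by 0.62 over the first interval (SE 0.07, edgeR adjusted p = 2.05e-05), with -0.15 over the second (SE 0.08, edgeR adjusted p = 0.309). Of the 18139 genes, 19.4% changed in either direction over the first interval and 8.13% over the second. With *Matn1*, the difference shrank from Day 2 to Day 7 for *Ebf1*, by a change of 0.39 (SE 0.04, edgeR adjusted p = 2.28e-05), and for *Ebf3*, by 0.77 (SE 0.08, edgeR adjusted p = 2.06e-05), where 23.4% of genes changed. From Day 7 to Day 10 it moved by 0.24 for *Ebf3* (SE 0.07, edgeR adjusted p = 0.0363), where 15.8% changed. None of the 3 changes with *Matn1* passed with at least 10 UMIs against 0. At Day 2 only 33 and 39 cells had that many, with 16 and 22 *Ebf3* UMIs. Thinned to 3000 UMIs, the change of *Ebf1* with *Matn1* from Day 2 to Day 7 (0.65) and that with *Tnmd* (1.15) kept their calls, while the other 4 named with these markers kept direction and lost the call.

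The difference with *Gdf5* went down for *Ebf1* and *Ebf3* over both intervals. From Day 7 to Day 10 *Ebf1* fell by 0.84 (SE 0.07, edgeR adjusted p = 9.06e-05) and *Ebf3* fell by 1.01 (SE 0.17, edgeR adjusted p = 0.00655), where 8.97% of 18099 genes changed. With cells thinned to 3000 UMIs, this change was -1.19 for *Ebf1* (edgeR adjusted p = 2.28e-06) and 0.036 for *Ebf3* (SE 0.62). The thinned value of *Ebf3* rests on 67 and 65 Day 10 cells with *Gdf5* and as few as 3 *Ebf3* UMIs in a library, so that it shows neither a change nor its absence. From Day 2 to Day 7 *Ebf1* fell by 0.36 (SE 0.06, edgeR adjusted p = 0.00443) and *Ebf3* fell by 0.63 (SE 0.11, edgeR adjusted p = 0.00583), where 10.4% changed. The change from Day 2 to Day 7 turned to 0.30 for *Ebf1* and 0.08 for *Ebf3* without the cells that had UMIs of several markers, and neither passed (edgeR adjusted p = 0.0673 and 0.830). Thinned to 3000 UMIs, it was 0.34 for *Ebf1* (edgeR adjusted p = 0.0486) and -0.34 for *Ebf3* (edgeR adjusted p = 0.638). No change between days was called for *Ebf2* with any of the 3 markers (edgeR adjusted p from 0.0537 to 0.989), of which the smallest was its change with *Gdf5* from Day 7 to Day 10, -1.29 (SE 0.36). *Ebf2* rested there on 12 and 7 UMIs in the Day 10 cells with *Gdf5*.

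Sets of cells with UMIs of only 1 of the 3 markers share no cells, and between them the members took different orders. The sets of *Gdf5* alone held 2021 and 1710 cells at Day 2 but 52 and 50 at Day 10. The cut was 1 UMI, which can be background for *Matn1* at Day 7 and Day 10, and the sets were not repeated at 10 *Matn1* UMIs. At Day 7, *Gdf5* alone kept 155 of 887 and 266 of 1002 cells with *Gdf5*. *Tnmd* alone kept 227 of 855 and 252 of 836 cells with *Tnmd*, while *Matn1* alone held 8604 of 13485 and 7169 of 12346 cells. *Ebf1* was highest with *Gdf5* alone at Day 2, at a mean of 496 ± 14.1 CPM (SD, n = 2), against 204 ± 2.14 with *Matn1* alone and 188 ± 9.22 with *Tnmd* alone. At Day 7 it was at 257 ± 31.2, 97.4 ± 5.30 and 121 ± 10.5 in the same order. The Day 7 cells with *Gdf5* alone were shallower, with medians of 7809 and 7479 UMIs against 9192 and 11646 for *Matn1* alone and 19100 and 20737 for *Tnmd* alone, and *Ebf1* was at higher levels in Day 7 cells of 3000 to 10000 UMIs than in deeper ones, 189 and 216 against 84.1 and 87.8 CPM. The part of depth in the Day 7 order was not tested by day. At Day 10 it was highest with *Tnmd* alone, at 118 ± 2.57, against 71.4 ± 4.87 with *Gdf5* alone and 68.8 ± 6.43 with *Matn1* alone. *Ebf3* was at 81.6 ± 2.26 with *Gdf5* alone, 65.8 ± 2.25 with *Tnmd* alone and 15.4 ± 0.557 with *Matn1* alone at Day 2, and at 7.08 ± 4.19, 14.8 ± 2.00 and 6.84 ± 1.80 at Day 10. For *Ebf2* the Day 2 values were 17.9 ± 0.883, 14.3 ± 1.90 and 9.86 ± 0.430.

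Averaged over the days, *Ebf1* was higher with *Gdf5* alone than with *Matn1* alone by 0.91 on the log2 scale (SE 0.06, edgeR adjusted p = 3.29e-11), and *Ebf3* by 1.23 (SE 0.17, edgeR adjusted p = 7.43e-06). *Ebf2* differed by 1.01 (SE 0.38, edgeR adjusted p = 0.0534) without a call. That made 2 of 3 called higher, against 12.3% of 16700 genes higher and 14.5% lower. These averages did not hold in each library. At Day 10 *Ebf1* was at 74.8 and 68.0 CPM with *Gdf5* alone against 64.2 and 73.3 with *Matn1* alone. *Ebf3* was at 10.04 and 4.12 against 8.11 and 5.57, so that for both genes the Day 10 replicates went opposite ways. On average over the days *Tnmd* alone exceeded *Matn1* alone for all 3 members, by 1.56 for *Ebf3* (SE 0.06, edgeR adjusted p = 1.84e-15), 0.54 for *Ebf2* (SE 0.14, edgeR adjusted p = 0.00340) and 0.32 for *Ebf1* (SE 0.04, edgeR adjusted p = 1.30e-07), against 22.4% of genes higher and 24.4% lower. For *Ebf1* this joins days of opposite sign, as *Tnmd* alone was the lower at Day 2. The call for *Ebf2* was lost without Day 10 replicate A, at 0.48 (edgeR adjusted p = 0.0636). Between *Gdf5* alone and *Tnmd* alone, *Ebf1* was higher with *Gdf5* by 0.59 (SE 0.06, edgeR adjusted p = 5.54e-08), where 9.99% of genes were higher and 13.9% lower, though its order was the reverse at Day 10. *Ebf2* differed by 0.47 (SE 0.35, edgeR adjusted p = 0.387) and *Ebf3* by -0.34 (SE 0.13, edgeR adjusted p = 0.0548). Among cells of at least 10000 UMIs, *Ebf1* with *Gdf5* alone was higher by 0.78 than with *Matn1* alone and by 0.41 than with *Tnmd* alone (edgeR adjusted p = 1.96e-10 and 5.16e-06). *Ebf4* was higher with *Gdf5* alone than with *Matn1* alone, by 0.93 (SE 0.24, edgeR adjusted p = 0.00424), and than with *Tnmd* alone, by 1.13 (SE 0.26, edgeR adjusted p = 0.00202), with -0.19 between *Tnmd* alone and *Matn1* alone (SE 0.15, edgeR adjusted p = 0.321). At Day 10 the sets of *Gdf5* alone held 1071874 and 1487206 UMIs of all genes. The 10.04 and 4.12 CPM of *Ebf3* and the 3.65 and 2.75 CPM of *Ebf4* in them thus rest on very few molecules.

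**Figure D4:**
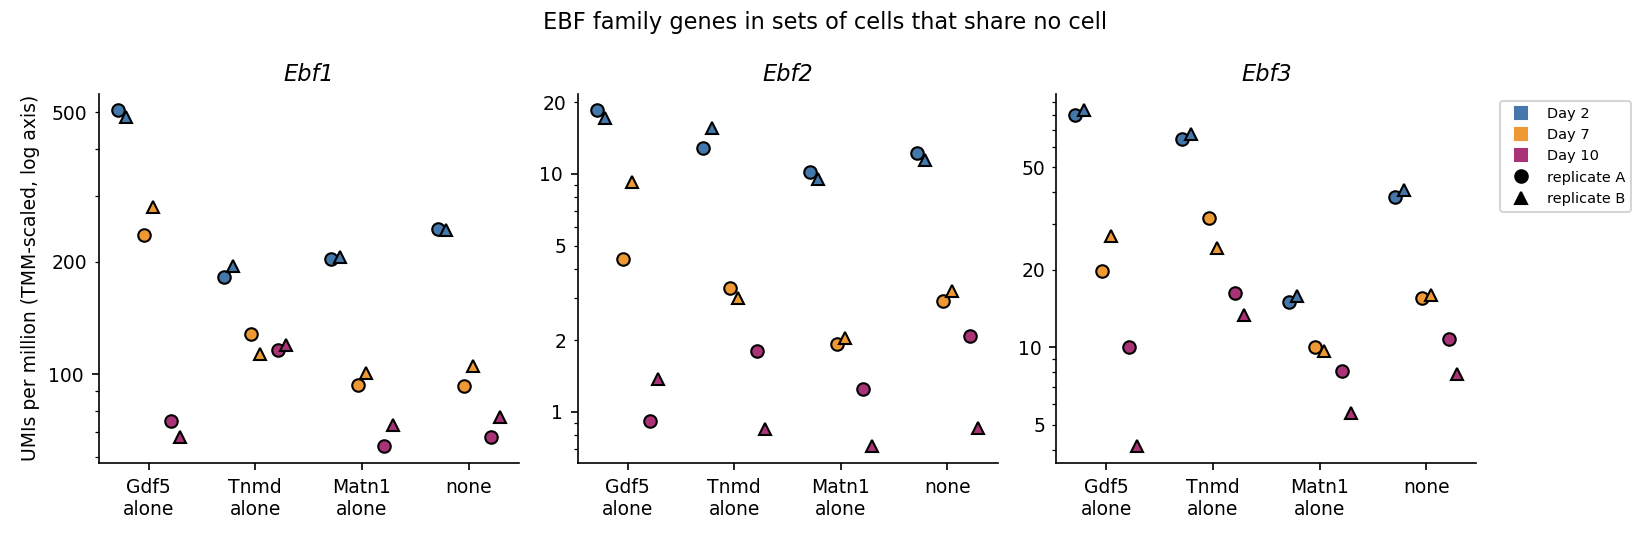
Level of each member (vertical log axes, CPM, TMM-scaled) in cells with UMIs of *Gdf5*, *Tnmd* or *Matn1* alone or of none of the 3, with 1 point per library, colours for days and shapes for replicates. The cut for each marker is 1 UMI, which can be background for *Matn1* at Day 7 and Day 10. *Ebf1* is highest with *Gdf5* alone at Day 2 and Day 7 and with *Tnmd* alone at Day 10, and *Ebf3* with *Matn1* alone is the lowest set of Day 2 and of Day 7.

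Further genes split the cells at their first UMI, and here CPM are given without TMM scaling and with no test. *Ebf3* was lower in cells with a UMI of *Ihh*, a signal of prehypertrophic chondrocytes, in 6 of 6 libraries, with log2 ratios from -1.41 to -1.03. The cells with *Ihh* were deeper, with medians of 31138 and 32403 UMIs against 6820.5 and 7789 at Day 7, and the part of depth was not tested. *Ebf3* was likewise lower with *Col10a1*, a collagen of hypertrophic cartilage, in 6 of 6 libraries (-1.07 to -0.35), as was *Ebf1* (-0.76 to -0.056). *Ebf2* with *Col10a1* was lower at Day 2 (-0.56 and -1.09) but higher in the later libraries (0.098 to 1.28). *Ebf2* was lower with *Ihh* in 6 of 6 (-1.53 to -0.35), while *Ebf1* with *Ihh* lay between -0.48 and 0.02. With *Hoxd13*, a homeobox gene of the distal limb, *Ebf3* was higher in 6 of 6 libraries (0.33 to 1.002), and *Ebf1* was at 466 ± 17.3 CPM with and 248 ± 0.126 without at Day 2 but at 66.2 ± 5.35 with and 78.3 ± 6.67 without at Day 10 (SD, n = 2). With *Cnn1*, a smooth muscle type calponin, *Ebf1* was lower in 6 of 6 libraries (-0.99 to -0.12). Cells with a *Cnn1* or *Scx* UMI were deeper on average than the others at Day 7. *Ebf1* was at 189 and 216 CPM in Day 7 cells of 3000 to 10000 UMIs against 84.1 and 87.8 in deeper ones. The part of depth was not tested for any of these further genes. With *Myog*, a muscle regulator, *Ebf1* was at 141 ± 4.74 against 318 ± 14.8 at Day 2. At Day 7 it was at 40.5 against 93.4 in replicate A and 157 against 100.5 in replicate B, with 58 and 54 *Myog* cells, so that the replicates went opposite ways, and at Day 10 only 6 and 16 cells had a *Myog* UMI. *Prg4*, the lubricin gene, gave ratios of mixed sign for all 3 members. With *Scx*, a tendon regulator, *Ebf1* had log2 ratios of 0.0082, which is near 0, and 0.17 at Day 2 and -0.52 to -0.27 later. The later signs were opposite to those of its TMM-scaled ratios with *Tnmd*. *Ebf2* and *Ebf3* lay between 0.42 and 0.63 with *Scx* at Day 2 and had mixed signs later. With *Thbs2*, a perichondrium gene, *Ebf3* was at -0.30 and -0.098 at Day 2 and 0.42 to 0.60 later. *Ebf2* was at -0.43 and -0.15, then 0.54 to 0.76, and *Ebf1* at -0.73 and -0.62, then -0.19 to 0.057.

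**Figure D5:**
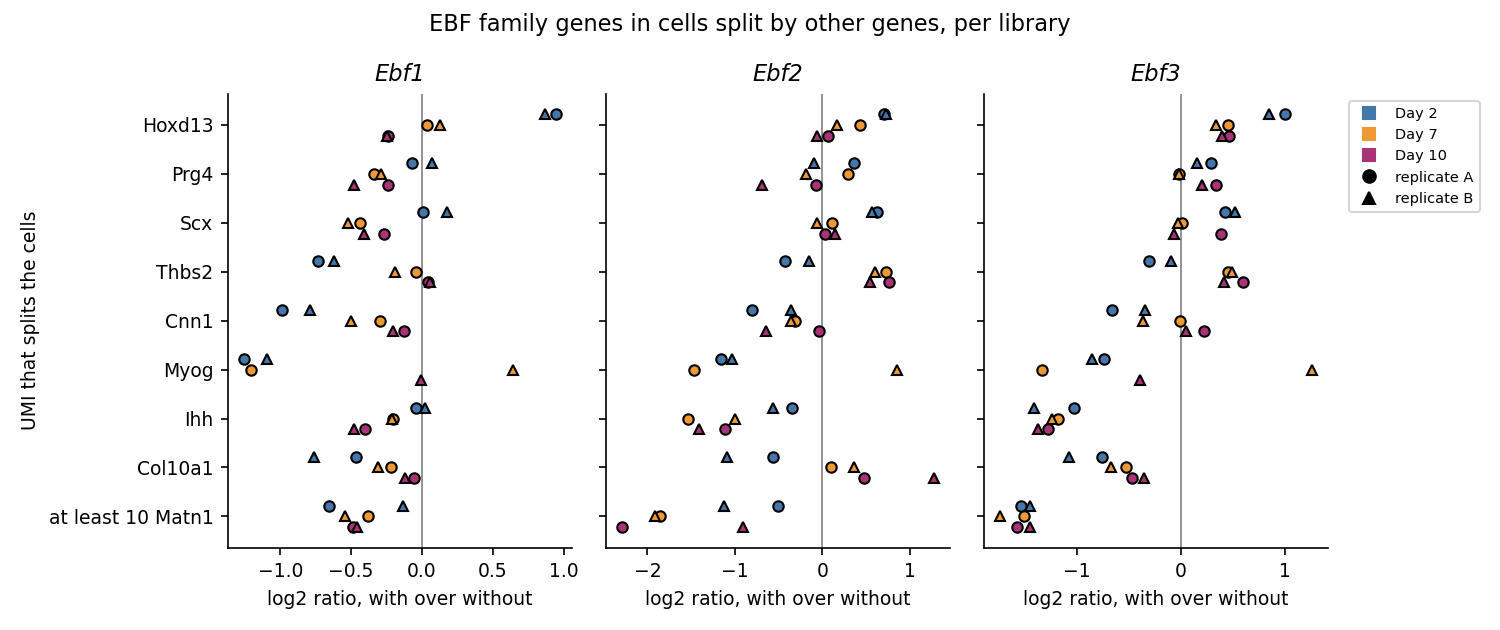
Log2 ratio of each member's level in cells with a UMI of another gene to that in cells without (horizontal axes), or with at least 10 against fewer *Matn1* UMIs, with 1 point per library, colours for days and shapes for replicates. Points are left out where fewer than 10 cells had the UMI or no member UMI was found. *Ebf3* lies below 0 for *Ihh*, *Col10a1* and at least 10 *Matn1* UMIs in all 6 libraries.

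Levels of the members also differed with the depth of the cells. In 6 of 6 libraries *Ebf1* was higher in cells of 3000 to 10000 UMIs than in cells of at least 10000, at 781 against 298 CPM in Day 2 replicate A, 189 and 216 against 84.1 and 87.8 at Day 7 and 188 and 212 against 62.9 and 70.3 at Day 10. In Day 2 replicate B the values were 316 and 301. *Ebf3* was higher in the shallower of these cells in 5 of 6 libraries, at 19.7 and 23.4 against 10.6 and 10.2 CPM at Day 7 and 18.4 and 17.7 against 9.10 and 6.40 at Day 10, with 46.9 against 55.3 in Day 2 replicate B. *Ebf2* was likewise higher in 5 of 6, all but Day 2 replicate B (12.2 against 14.3). Below 3000 UMIs, *Ebf1* did not rise further except in Day 10 replicate B (228 CPM). It was lowest of the depth groups in Day 2 replicate B (263) and Day 7 replicate A (72.7). In Day 2 replicate A (499), Day 7 replicate B (91.2) and Day 10 replicate A (115) it lay between the other groups. Among cells of at least 10000 UMIs alone, the average differences with *Gdf5*, *Matn1* and *Tnmd* were 0.46, -0.15 and 0.25 for *Ebf1* and 0.18, -0.83 and 0.95 for *Ebf3*, each on the same side of the test as before.

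Proteins that work with EBF factors or against them were taken as a list of 10 genes, of which 9 were tested. From Day 2 to Day 7, 6 fell and 3 rose (median -0.51, against 0.01 over all genes, of which 34.6% fell and 35.7% rose), and from Day 7 to Day 10, 4 fell and 2 rose (median -0.02, against -0.02 over all genes). *Zfp423*, which codes for a zinc finger protein that binds EBF factors, had the largest change of the list. It went from 19.3 ± 1.34 CPM at Day 2 to 4.96 ± 0.235 at Day 7 and fell by 1.96 (SE 0.07, edgeR adjusted p = 6.96e-08). Its relative *Zfp521* fell by 0.21 (SE 0.07, edgeR adjusted p = 0.0236) and then fell by 0.52 (SE 0.07, edgeR adjusted p = 4.45e-04). The chromatin remodelling genes *Chd4* and *Smarca4* and the E protein genes *Tcf3* and *Tcf12* fell from Day 2 to Day 7 too, with log2 changes of -0.74, -0.70, -0.80 and -0.51. *Runx1*, a runt transcription factor gene, rose by 0.87 (SE 0.06, edgeR adjusted p = 1.38e-06), and *Foxo1* and *Tet2* rose by 0.37 and 0.50. With *Gdf5*, 0 of 9 were higher and 3 lower, where 14.1% and 19.1% of all genes were. With *Matn1* the counts were 0 and 6 (21.9% and 27.1% of all genes), and with *Tnmd* 4 and 1 (23.0% and 23.2%). *Runx1* was lower with *Gdf5* and *Matn1*, by log2 differences of -0.42 and -0.45, and higher with *Tnmd*, by 0.44.

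Gene groups in which EBF factors are known to act elsewhere are read against all genes, of which 35.7% rose and 34.6% fell from Day 2 to Day 7 and 26.3% rose and 25.9% fell from Day 7 to Day 10. Of 8 adipocyte genes tested, 5 rose and 1 fell from Day 2 to Day 7 (median 1.35). *Fabp4*, a fatty acid carrier, went from 0.568 ± 0.246 to 31.3 ± 2.28 CPM, and *Pparg*, the regulator of fat cell formation, rose by 1.17 (SE 0.09, edgeR adjusted p = 3.86e-06), while *Prdm16*, a brown fat regulator, fell by 1.76 (SE 0.05, edgeR adjusted p = 2.16e-08). From Day 7 to Day 10, 4 rose and 3 fell. Of the 7 marrow stromal niche genes, 3 rose and 3 fell over the first interval, and 3 rose and 1 fell over the second. *Cxcl12*, the chemokine that holds blood progenitors in marrow, was at 37.8 ± 0.446, 44.9 ± 1.07 and 92.6 ± 3.93 CPM at Day 2, Day 7 and Day 10, and *Lepr*, the leptin receptor gene, fell by 1.20 (SE 0.16, edgeR adjusted p = 1.63e-04) over the first interval. Of 10 B lineage targets of EBF1, 5 passed the filter on low counts, and the highest of them, *Vpreb1* of the surrogate light chain, was at 1.15 ± 0.147 CPM at Day 2. Of those 5, 3 fell and 1 rose from Day 2 to Day 7 and 1 rose from Day 7 to Day 10. The pericyte list had 2 of 6 higher and 2 lower over the first interval, 2 and 1 over the second.

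The tissue lists of the cultures are read against the same shares of all genes, 35.7% higher and 34.6% lower over the first interval and 26.3% and 25.9% over the second. From Day 2 to Day 7, 9 of 10 cartilage genes, 5 of 8 tendon genes, 3 of 4 perichondrium genes and 3 of 4 articular genes rose, and 9 of 11 joint interzone genes and 3 of 8 tendon genes fell. From Day 7 to Day 10, 10 of 10 cartilage genes and 5 of 11 joint interzone genes fell, while 5 of 8 tendon genes, 3 of 4 perichondrium genes and 3 of 4 articular genes rose. Genes of the dissociation response went up and down, 6 of 11 higher and 4 lower over the first interval and 8 and 0 over the second.

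Finally, the genes most like each member were sought over 30 sums of cells, those of the 5 marker sets in 6 libraries, among 8089 or 8090 genes with a mean of at least 10 CPM. Pearson's r of log2 levels was 0.95 between *Ebf1* and *Nfia*, which codes for a nuclear factor I protein, followed by *Ccdc66*, *Cdk19*, *Top2b* and *Nipbl* (r of 0.93 to 0.92). For *Ebf2* they were *6330403K07Rik* (0.97), *Mex3a*, *L3mbtl3*, *Rtf1* and *Jarid2* (0.97 to 0.96). For *Ebf3* they were *Pcdh18*, a protocadherin gene (0.94), *Tnfaip6*, *Sncaip*, *Ptprd* and *Wdr82* (0.92 to 0.91). Between members, r was 0.90 for *Ebf1* and *Ebf2*, 0.86 for *Ebf1* and *Ebf3* and 0.88 for *Ebf2* and *Ebf3*. The sums share libraries, days and cell depth, so these values are descriptions.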

How the data were processed

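The authors made the deposited UMI counts per gene and cell barcode with Cell Ranger 6.1.2 and STAR on GRCm38, 1 matrix per library, and their notes name Seurat 4.1.0. Depth per library is given with the results. Cells were kept within the study's limits per library: at least 800 or 1000 UMIs, 200 to 7500 genes, at most 25, 30 or 40% mitochondrial and 35 or 40% ribosomal UMIs. UMIs were summed per library, or per library and set of cells, and tested with edgeR 4.0.16 (filterByExpr, TMM, quasi-likelihood, R 4.3.3) with Benjamini-Hochberg adjustment over all genes tested and calls at 0.05. Library was a covariate between sets of cells. The 2 cultures per day are independent, and p-values measure the spread between these samples. Binomial intervals cover counting error only. Scripts were tested on simulated data. DESeq2 1.42.0, other filters, scalings, cell limits and left-out libraries were alternatives. The labels do not say that the replicate letters pair samples across days, and the letters were left out of the main fit. Differences between replicates A and B correlated between days at -0.02, -0.06 and -0.01, which does not exclude a shared origin. The members, lists and marker genes were chosen with earlier results of these data known. Genes named are the members and *Ebf4*, list genes that passed the test or are highest, and the 5 genes with the highest correlation to each member.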

Additional observations from a re-analysis of the deposited data

Results flagged for a closer look

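In 10 instances the difference between cells with and without a marker UMI changed between days by the test of that change (quasi-likelihood test of edgeR, p adjusted by Benjamini-Hochberg). With *Tnmd*, it changed for *Ebf1* by 0.87 from Day 2 to Day 7 and 0.40 from Day 7 to Day 10, and for *Ebf3* by 0.62 from Day 2 to Day 7. With *Matn1*, it changed from Day 2 to Day 7 by 0.39 for *Ebf1* and 0.77 for *Ebf3*, and from Day 7 to Day 10 by 0.24 for *Ebf3*. With *Gdf5*, it changed from Day 2 to Day 7 by -0.36 for *Ebf1* and -0.63 for *Ebf3*, and from Day 7 to Day 10 by -0.84 for *Ebf1* and -1.01 for *Ebf3*. The change of *Ebf1* with *Tnmd* from Day 2 to Day 7 kept its call under each alternative run. Depth of the cells differed between the sides of these splits. With cells thinned to 3000 UMIs, 3 of the 10 kept direction and call (*Ebf1* with *Tnmd* and *Matn1* from Day 2 to Day 7 and with *Gdf5* from Day 7 to Day 10), 5 lost the call and 2 turned sign: with *Gdf5*, *Ebf1* from Day 2 to Day 7 was 0.34 and *Ebf3* from Day 7 to Day 10 was 0.036, with an SE of 0.62 and as few as 3 *Ebf3* UMIs in a library, too few to show a change or its absence. Among cells of at least 10000 UMIs, all 10 kept direction and call. Without cells of several markers, the changes with *Gdf5* from Day 2 to Day 7 were 0.30 for *Ebf1* and 0.081 for *Ebf3*.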

How the results depend on the processing

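No alternative run changed the direction or call of *Ebf1*, *Ebf2* or *Ebf3* between days in whole cultures. With the replicate letter as a block, their changes were -1.39, -2.36 and -1.93 from Day 2 to Day 7 and -0.40, -0.97 and -0.49 from Day 7 to Day 10, with 13135 and 9607 genes called against 13342 and 9913; the block changed no call. The average difference of *Ebf2* with *Gdf5* was 0.46 over all barcodes, -1.93 after thinning to 3000 UMIs (SE 3.26) and 0.14 to 0.35 leaving out 1 library, where only leaving out Day 7 replicate A (0.35) gave a call. That of *Ebf3* with *Gdf5* was 0.31 at 2 or more UMIs, 0.59 without cells of several markers and 0.020 to 0.26 leaving out 1 library, with a call only without Day 10 replicate A (0.26). That of *Ebf2* with *Tnmd* was 0.31 thinned and 0.26 without cells of several markers. Between *Gdf5* alone and *Matn1* alone, *Ebf2* differed by 1.01 with DESeq2, 1.13 over all barcodes, 1.11 in cells of at least 10000 UMIs, 1.11 without TMM and -0.52 thinned. Between *Tnmd* alone and *Matn1* alone, it differed by 0.48 to 0.60 leaving out 1 library, and the call was lost only without Day 10 replicate A (0.48). Between *Gdf5* alone and *Tnmd* alone, *Ebf2* was at -1.87 thinned, and *Ebf3* at -0.34 with DESeq2, -0.34 with no filter, -0.45 over all barcodes, -0.45 in cells of at least 10000 UMIs, 0.26 thinned and -0.58 to -0.20 leaving out 1 library, with calls without Day 2 replicate A (-0.39), Day 7 replicate B (-0.54) or Day 10 replicate A (-0.58).

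Of the changes of a difference between days, these turned sign. With *Gdf5*, *Ebf1* from Day 2 to Day 7 was 0.34 thinned and 0.30 without cells of several markers, *Ebf3* was 0.081 without cells of several markers and, from Day 7 to Day 10, 0.036 thinned, and *Ebf2* from Day 2 to Day 7 was -0.058 to 0.58 leaving out 1 library, below 0 without Day 7 replicate B. With *Matn1* from Day 7 to Day 10, *Ebf1* was 0.0022 over all barcodes, 0.46 thinned, 0.090 without TMM and -0.049 to 0.037 leaving out 1 library (0.024 without Day 7 replicate A), and *Ebf2* was -0.51 thinned. With *Matn1* from Day 2 to Day 7, *Ebf2* was 0.068 with no filter, 0.86 thinned and -0.022 to 0.044 leaving out 1 library, above 0 in 5 of 6 such fits. With *Tnmd* from Day 7 to Day 10, *Ebf2* was -0.10 over all barcodes, -0.018 in cells of at least 10000 UMIs, -0.19 thinned, -0.13 without Day 7 replicate B, -0.11 at 2 or more UMIs and -0.24 without cells of several markers. The thinned values of *Ebf2* with *Gdf5* or *Gdf5* alone rest on sums that were 0 in 2 libraries (SE 3.25 to 3.63 for averages), so they are no estimate of a difference. Thinning to 3000 UMIs also left out shallower cells and recounted the marker UMIs, so that cells with *Gdf5* went from 2219 to 689 in Day 2 replicate A and from 373 to 67 in Day 10 replicate A. It moved the genes called to 5849 from Day 7 to Day 10, to 1627, 5356 and 1849 with *Gdf5*, *Matn1* and *Tnmd*, and to 1356, 1228 and 3542 between *Gdf5* and *Matn1* alone, *Gdf5* and *Tnmd* alone and *Tnmd* and *Matn1* alone. Without cells of several markers, 2937 genes were called with *Gdf5*. The causes were not tested. Of all alternative values of the members over whole cultures, averages and sets, 292 kept direction and side of the threshold, 16 gained a call, 3 lost one and 4 turned sign. Of those of changes of a difference between days, 207 kept both, 9 gained a call, 18 lost one and 24 turned sign. Few *Gdf5* cells at Day 10 and few *Ebf2* UMIs limit these comparisons.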
